A study of Mus musculus with 6 samples.

Results

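The genes described here encode the general splicing machinery and its regulators: the SR proteins, the heterogeneous nuclear ribonucleoproteins (hnRNPs), the Sm and U snRNP proteins, the SF3A and SF3B subunits and the LSm proteins. They were taken by symbol alone, as the protein-coding genes of the GENCODE M21 annotation whose names begin with Srsf, Hnrnp, Snrp, Sf3a, Sf3b or Lsm, a rule that uses no measured value. The rule took 66 of 21951 annotated protein-coding genes, of which 60 had at least 1 read, while reads were seen on 8129 genes in all, 7387 of them protein-coding. By role they were 20 hnRNP genes, 13 LSm genes, 12 Sm and U snRNP genes, 11 SR genes and 9 SF3A and SF3B genes. The remaining gene, Lsmem1, shares the letters of the LSm family but encodes a membrane protein, and it had no read.

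Messenger RNA was sequenced as full-length cDNA on nanopore flow cells from interscapular brown adipose tissue, the heat-producing fat between the shoulder blades, of male wild type C57BL/6N mice aged 20 weeks. The cold group was 3 mice, numbered 4, 11 and 15, held singly at 4 °C for 24 h, and the control group was 3 mice, numbered 2, 9 and 14, for which the general husbandry at 22 to 24 °C is given. The text on cold housing stands on all 6 records, so the groups were taken from the titles and the treatment tag. Whether the control mice were also housed singly is not known, so cold and single housing cannot be told apart. The label for tissue is interscapular brown fat throughout, although the extraction text speaks of eWAT, a white fat. All 13 genes of a brown adipocyte marker list had reads. Of these, Prdm16, Dio2 and Ppargc1a had only 1, 4 and 10 reads, all in cold libraries. The list summed to 59498, 61573 and 58449 CPM in cold mice 4, 11 and 15. In control mice 2, 9 and 14 it summed to 63161, 52377 and 57253 CPM. CPM is edgeR's read count relative to the scaled library total. Fabp4, a fatty acid carrier of adipocytes, made up most of the list sum, with 37795 ± 2148 CPM in cold and 35074 ± 2612 CPM in control libraries (SD, n = 3 each). The sum therefore mostly follows Fabp4 and does not by itself settle which fat was taken. Of the 10 markers tested, 3 were called higher in cold libraries (Elovl3, Plin5 and Cidec) and 2 lower (Cox8b and Adipoq) by edgeR. Ucp1, the uncoupling protein of brown fat, averaged 4129 ± 45.0 CPM in cold and 4520 ± 335 CPM in control libraries (SD, n = 3 each).

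Introns are removed by the spliceosome, in which the U1 snRNP recognises the 5′ splice site and the U2 snRNP, with SF3A and SF3B, the branch point. Most snRNPs are built on a ring of Sm proteins, and LSm proteins form related rings on U6 RNA and in messenger RNA decay. SR proteins mostly favour the use of an exon and hnRNPs often oppose it. Many of these genes restrain their own output by splicing a poison exon, which carries a premature stop codon, or by keeping an intron, and messages with a poison exon are substrates of nonsense-mediated decay.

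Poison exons were counted in these libraries, and 2 of them are shown because their isoforms had the most reads among those with a premature stop in an added exon. Srsf3-201 carries an exon of 456 bases at chr17:29039454-29039909 on the plus strand of GRCm38 that its coding partner Srsf3-202 skips. Snrpb-203 carries an exon of 124 bases at chr2:130176629-130176752 on the minus strand that Snrpb-201 skips. Each exon is printed from its first base to the in-frame stop codon, which is in capitals. The printed bases are chr17:29039454-29039487 and chr2:130176695-130176752.
Srsf3-201: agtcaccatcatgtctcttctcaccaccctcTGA
Snrpb-203: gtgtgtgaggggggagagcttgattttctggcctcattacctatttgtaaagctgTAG
The stop codon came after 31 bases of the Srsf3 exon and after 55 bases of the Snrpb exon.

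**Figure D1:**
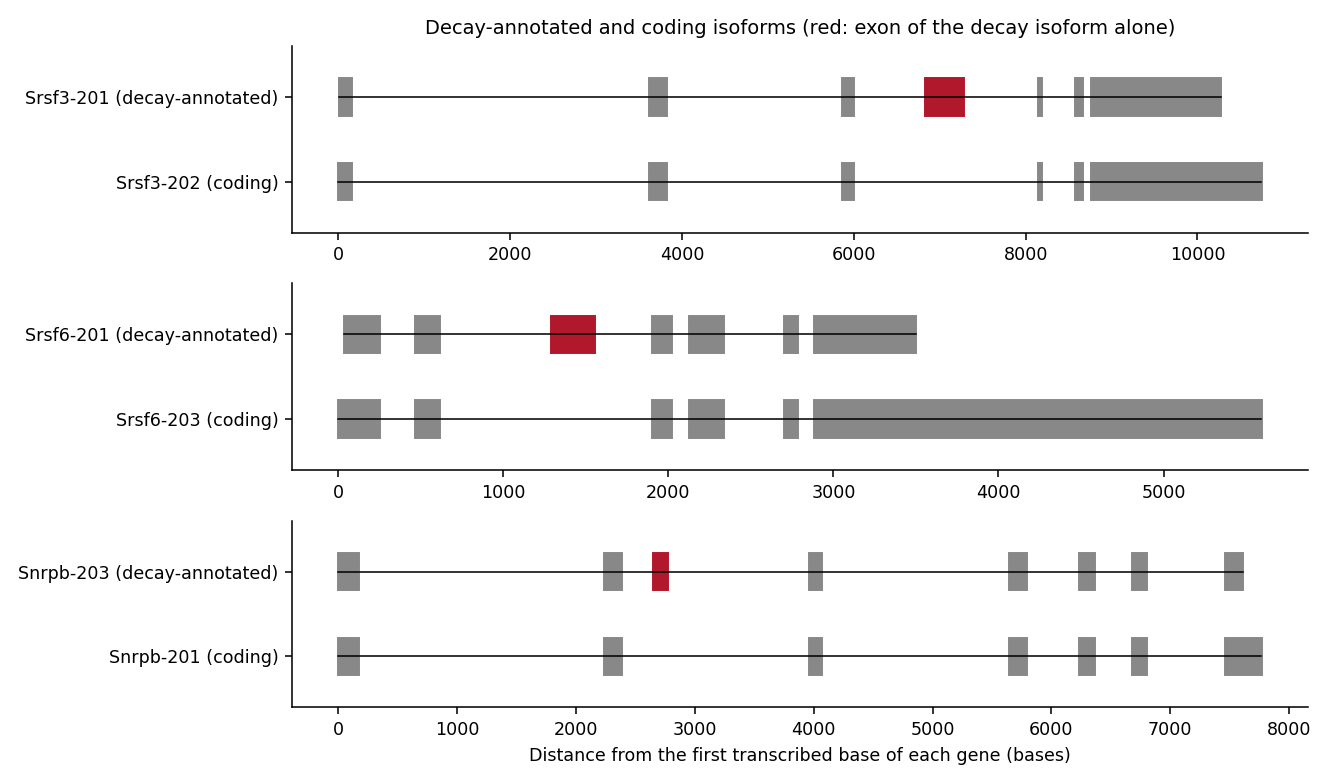
Annotated exons of 3 decay isoforms (upper row of each pair) and their coding partners (lower row), with the x axis in bases from the first transcribed base of each gene. The exon in red is in the decay isoform alone, and it lies between exons that the isoforms share.

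Library totals were 2923005, 2982713 and 2951890 reads in cold mice 4, 11 and 15, against 1849431, 1014847 and 1735360 reads in control mice 2, 9 and 14, so every cold library was deeper than every control library. Depth and treatment cannot be told apart here, beyond a fit on counts thinned to equal depth. The 66 genes took 0.104, 0.0979 and 0.0936% of the reads in cold libraries, against 0.0794, 0.0875 and 0.0885% in control libraries. Members with a read numbered 52, 52 and 51 in cold libraries, against 47, 35 and 46 in control libraries. Markers of skeletal muscle, which lies beside this depot, summed to 183, 2824 and 12986 CPM in cold mice 4, 11 and 15, against 122, 542 and 948 CPM in control mice 2, 9 and 14. Of the 10 muscle markers 9 had reads (Myh2 had none), and in cold mice 11 and 15 the sum was above every control library. Each gene, isoform or splicing gene with another name that the filtered test called was therefore also fitted without cold mice 11 and 15. That fit sets cold mouse 4 alone against 3 control mice, without replicates in cold. Only its log2 changes or their direction are given, and no call is taken from it. Markers of endothelium, macrophages, fibroblasts and red cells overlapped between the groups, and the lymphocyte markers held 3 reads in all. In whole tissue, fewer cells of a type and less RNA per cell cannot be told apart.

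Most of these genes were near the limit of what was counted. Only 20 of the 66 passed the count filter, and they held 95.8% of the 12629 reads on the whole set. Snrpb, Srsf6, Hnrnpab and Snrpd3 together held 8270 reads, 65.5% of the total. A further 40 genes had between 1 and 56 reads over the 6 libraries, with a median of 8. Lsm10, Lsm11, Lsm14b, Sf3b3, Srsf12 and Lsmem1 had none. On the scaled CPM used here, 3 reads correspond to 0.989 to 1.01 CPM in cold libraries and to 1.62 to 3.08 CPM in control libraries.

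Of the 20 tested genes, 5 were higher in cold libraries, Srsf3, Srsf6, Hnrnpf, Hnrnpm and Snrpc, and 2 were lower, Snrpn and Snrpd2. The calls are from edgeR's quasi-likelihood test at an adjusted p under 0.05 (Benjamini-Hochberg over all tested genes). That is 35% of the tested members, against 33.2% of all 2093 tested genes, a share near the background. Higher calls made up 25% of the members and 18.1% of all genes, and lower calls 10% and 15.1%. The count filter asked for 4.19 CPM in at least 3 libraries, and Srsf3 and Hnrnpu reached it in cold libraries alone. Members that reached it in both groups numbered 18, of which 4 were called higher and 2 lower, 33.3% against 31.2% of the 2000 such genes in all. The median log2 change was 0.28 over the 20 members and 0.04 over all tested genes. In 10 of the 20 the cold and control libraries did not overlap in either direction, against 47.8% of all tested genes. The 13 genes without a call had log2 changes from -0.41 to 0.67, and the smallest adjusted p among them was 0.244 (edgeR).

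**Figure D2:**
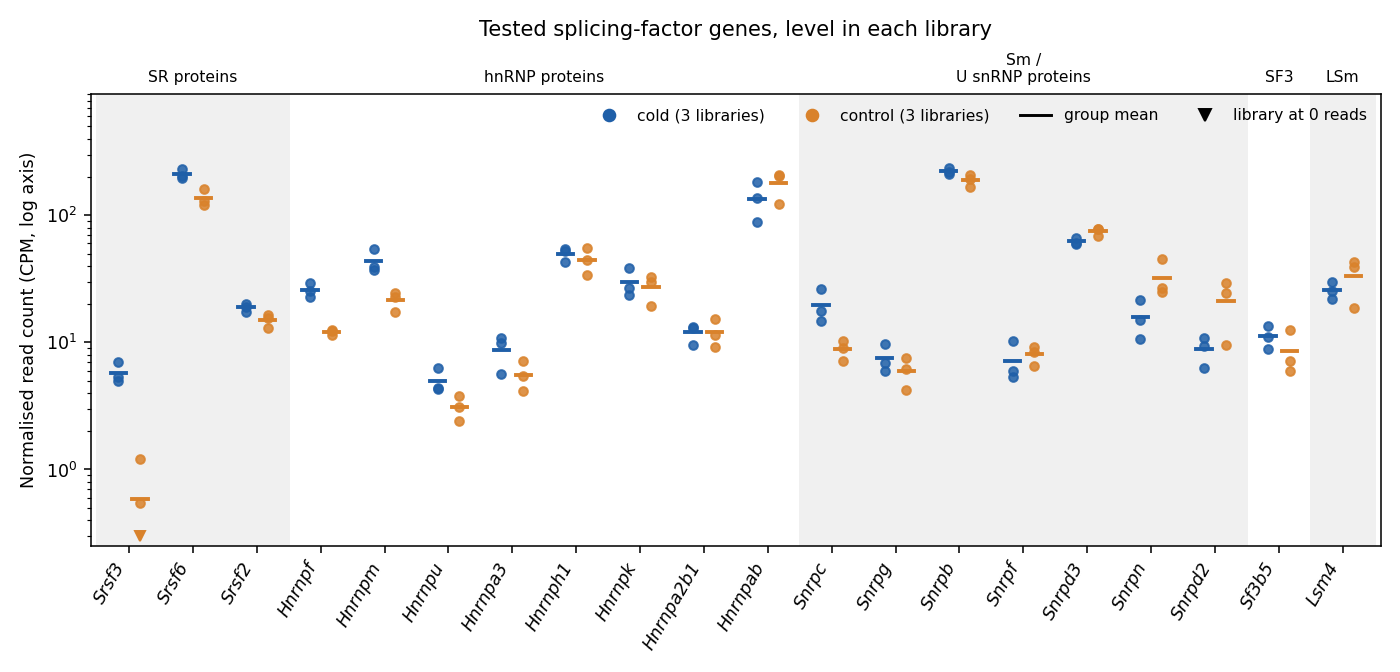
Normalised read count (CPM, log axis) of the 20 tested genes in each library, by role, with cold libraries in blue left of control libraries in orange and a bar at each group mean. Srsf3 stands apart, with cold libraries at 4.94 to 7.05 CPM and control libraries at 0 to 1.20 CPM.

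Among the SR proteins 3 of 11 were tested, 2 were called higher and none lower. Srsf3, the smallest SR protein, which also helps to export messenger RNA, lies at chr17:29032628-29043373 on the plus strand. It had 21, 16 and 15 reads in cold mice 4, 11 and 15, against 1, 0 and 2 reads in control mice 2, 9 and 14. The levels were 7.05, 5.30 and 4.94 CPM in cold, against 0.54, 0.00 and 1.20 CPM in control libraries. All 3 cold libraries were above all 3 control libraries, each of which was below its own limit of 3 reads. The fitted log2 change was 3.01 ± 0.61 (SE; edgeR adjusted p = 0.00368). It depends on the small control counts, and the gene was tested only because it passed the filter in the group where it was high, so the p is no support on its own. In the fit with no count filter the log2 change was 3.13 (edgeR adjusted p = 0.00048). That fit rests on the same reads, so its p is no separate support. As a share of all reads, 52 reads in cold against 3 in control libraries gave a ratio of 9.00, with an exact 95% interval of 2.91 to 45.1 that covers counting error only. Without any 1 cold library, on either flow cell alone, at equal depth, or on coding isoforms alone, Srsf3 was below the count filter and could not be tested. Without cold mice 11 and 15 its log2 change was 3.33.

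Srsf6, an SR protein that binds exonic enhancers, was the member of its family with the most reads. It lies at chr2:162931528-162937121 on the plus strand. Its level was 205, 233 and 198 CPM in cold mice 4, 11 and 15, against 120, 162 and 129 CPM in control mice 2, 9 and 14. The lowest cold library was above the highest control library, and the log2 change was 0.63 ± 0.20 (edgeR adjusted p = 0.0343). The direction was the same in all 15 alternatives, from 0.52 to 0.76. The call was lost on flow cell 1 alone, at equal depth, and without cold 4, cold 11, control 2 or control 14. The edgeR adjusted p values there were 0.056 to 0.118. Without cold 11 and 15 together the log2 change was 0.63. Srsf2, which acts in early spliceosome assembly, was not called. It averaged 18.8 ± 1.34 CPM in cold and 15.0 ± 1.80 CPM in control libraries (SD, n = 3 each; log2 change 0.34 ± 0.24, edgeR adjusted p = 0.307). The groups did not overlap. Its locus overlaps Mettl23 and Mfsd11 on the other strand, which held 69 reads, and no statement of strand in the counting is given in the sources used here. The other 7 SR genes with reads, Srsf1, Srsf4, Srsf5, Srsf7, Srsf9, Srsf10 and Srsf11, had 4 to 23 reads each, and none was tested. Together they had 46 of 8857380 reads in cold and 28 of 4599461 reads in control libraries, a lower share in cold.

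Among the hnRNPs 8 of 20 were tested, 2 were called higher and none lower. Hnrnpf, which binds runs of guanines near splice sites and poly(A) signals, lies at chr6:117900324-117925622 on the plus strand. It had 22.8, 25.5 and 29.3 CPM in cold mice 4, 11 and 15, against 11.4, 12.3 and 12.6 CPM in control mice 2, 9 and 14. The spread within each group was small beside the distance between them, and the log2 change was 1.10 ± 0.25 (edgeR adjusted p = 0.0063). Hnrnpf kept its call without each of the 6 libraries in turn, with log2 changes of 1.00 to 1.16, and at equal depth (0.96, edgeR adjusted p = 0.0317). Without cold mice 11 and 15 together the log2 change was 0.96. Near-identical copies of Hnrnpf in the annotation held no read.

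Hnrnpm, which binds GU-rich motifs and acts on alternative exons, lies at chr17:33646233-33686860 on the minus strand. It had 54.0, 37.4 and 39.2 CPM in cold mice 4, 11 and 15, against 17.3, 24.7 and 22.8 CPM in control mice 2, 9 and 14. All cold libraries were above all control libraries, with cold mouse 4 the highest. The log2 change was 1.03 ± 0.26 (edgeR adjusted p = 0.0116). Without cold mouse 4 it was 0.82 (edgeR adjusted p = 0.0666), the only alternative with replicates in both groups that ended the call. Without cold mice 11 and 15 it was 1.38. Hnrnpm shares exonic sequence on the same strand with March2, which held 76 reads, so the division of reads between them is uncertain.

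Hnrnpab, a single-strand RNA- and DNA-binding protein, had more reads than any other hnRNP and was not called. It had 182, 136 and 88.3 CPM in cold mice 4, 11 and 15, against 123, 207 and 205 CPM in control mice 2, 9 and 14. The ranges overlapped widely, and the log2 change was -0.39 ± 0.29 (edgeR adjusted p = 0.329). Hnrnph1, a relative of Hnrnpf, averaged 49.6 ± 6.05 CPM in cold and 44.7 ± 10.7 CPM in control libraries (SD, n = 3 each; log2 change 0.16 ± 0.24, edgeR adjusted p = 0.635). The other tested hnRNPs, Hnrnpu, Hnrnpa3, Hnrnpk and Hnrnpa2b1, had log2 changes of 0.04 to 0.67 and no call. Hnrnpu overlaps Cox20 on the other strand, which held 548 reads. Of the 12 untested hnRNPs, Hnrnpa1, which binds exonic silencers, had the most reads and is named after its values were seen. It had 22, 12 and 15 reads in cold mice 4, 11 and 15, against 3, 0 and 4 reads in control mice 2, 9 and 14. With no count filter its log2 change was 1.91 ± 0.62 (edgeR adjusted p = 0.0293). It was the only call in that fit among the 40 members below the filter, where 1.26% of all 6036 genes below the filter were called.

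**Figure D3:**
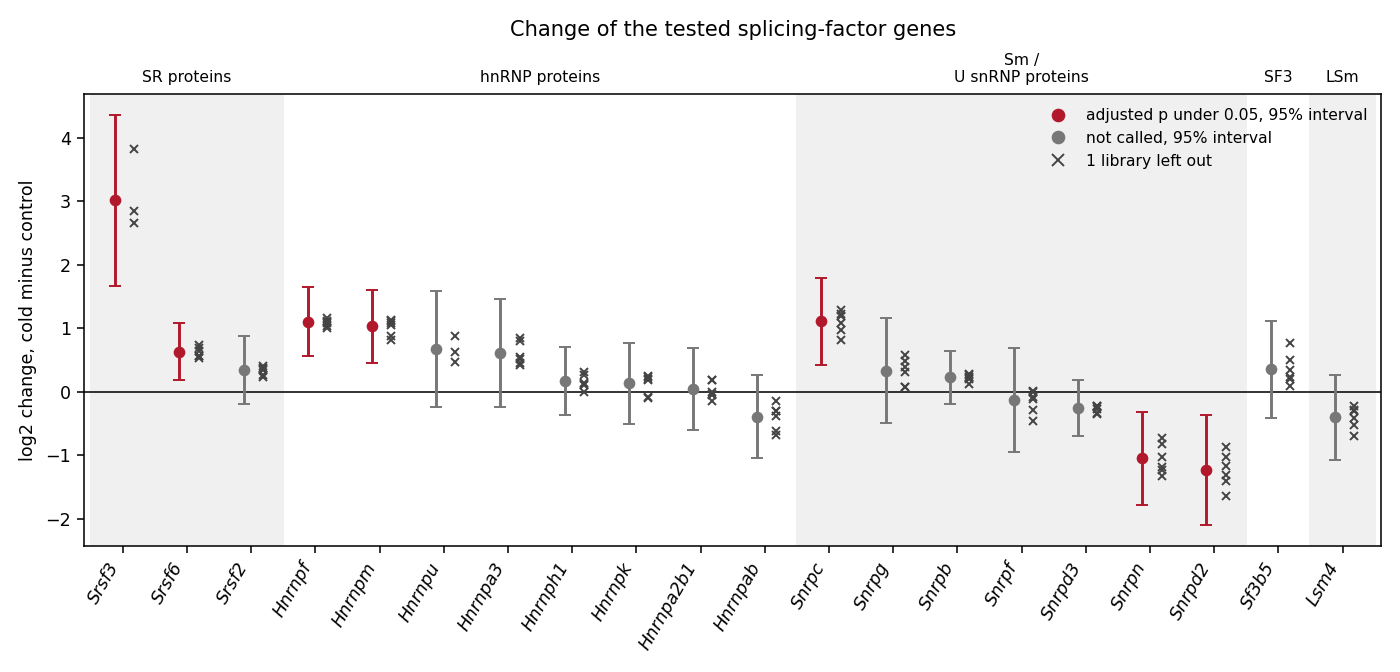
Log2 change, cold minus control, of the 20 tested genes by role, with the 95% interval of the fit (called genes in red) and crosses for the fits that leave out 1 library. Intervals of the 7 called genes do not reach 0, which follows from the calls because both come from the same test. Every cross of a called gene lies on the same side of 0 as its point. Srsf3 has crosses only for fits without a control library, and Hnrnpf alone was tested and called in every such fit.

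Among the Sm and U snRNP proteins 7 of 12 were tested, 1 was called higher and 2 lower. Snrpc, the U1-C protein that helps the U1 snRNP to bind the 5′ splice site, lies at chr17:27838150-27851968 on the plus strand. It had 26.2, 17.5 and 14.8 CPM in cold mice 4, 11 and 15, against 10.3, 7.19 and 9.00 CPM in control mice 2, 9 and 14. Each cold library was above each control library, and cold mouse 4 was the highest. The log2 change was 1.11 ± 0.31 (edgeR adjusted p = 0.0189), and 1.58 without cold mice 11 and 15. The call was lost on flow cell 2 alone (1.01, adjusted p = 0.0773) and without cold 4 (0.82, 0.0931), control 9 (0.98, 0.0637) or control 14 (1.08, 0.0591), each from edgeR, and at equal depth the gene was below the filter.

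Snrpn encodes SmN, a relative of SmB whose gene is imprinted and is best known from the brain. It lies at chr7:59982495-60140219 on the minus strand, where the overlapping Snurf was assigned no read. It had 15.1, 21.5 and 10.5 CPM in cold mice 4, 11 and 15, against 24.9, 26.7 and 45.6 CPM in control mice 2, 9 and 14. All cold libraries were below all control libraries, and control mouse 14 stood highest. The log2 change was -1.05 ± 0.33 (edgeR adjusted p = 0.0316). Without control mouse 14 it was -0.74 (edgeR adjusted p = 0.136), and the call was also lost without cold 4, without cold 15 and on flow cell 2 alone. Without cold 11 and 15 together the log2 change was -1.06.

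Snrpd2, a subunit of the Sm ring, lies at chr7:19149722-19153542 on the plus strand. It had 9.40, 6.29 and 10.9 CPM in cold mice 4, 11 and 15, against 29.2, 24.7 and 9.60 CPM in control mice 2, 9 and 14. The groups overlapped, because control mouse 14 lay among the cold libraries. The log2 change was -1.24 ± 0.39 (edgeR adjusted p = 0.032). It was -0.88 without control mouse 2 (edgeR adjusted p = 0.141), and the call was also lost without cold 4, cold 11 or control 9. Without cold 11 and 15 together the log2 change was -1.11. The flow cells of the same libraries gave -0.85 (edgeR adjusted p = 0.182) and -1.82 (edgeR adjusted p = 0.00697).

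The other 4 tested Sm proteins were not called. Snrpb, which encodes SmB and SmB′, had 220, 212 and 234 CPM in cold mice 4, 11 and 15, against 191, 167 and 209 CPM in control mice 2, 9 and 14. The cold libraries were all above the control libraries, but by little, and the log2 change of 0.23 ± 0.19 was not called (edgeR adjusted p = 0.383). Snrpd3, another subunit of the ring, averaged 62.4 ± 3.79 CPM in cold and 75.0 ± 5.69 CPM in control libraries (SD, n = 3 each). Its cold libraries were all below its control libraries, and its log2 change of -0.26 ± 0.20 was not called (edgeR adjusted p = 0.337). Snrpf and Snrpg had log2 changes of -0.13 and 0.33 without a call. Snrpa1, the U2-A′ protein, was below the filter with 16, 6 and 19 reads in cold mice 4, 11 and 15, against 4, 1 and 3 reads in control mice 2, 9 and 14. With no count filter its log2 change was 1.45 ± 0.63, without a call (edgeR adjusted p = 0.169).

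The SF3 genes taken by name and the LSm genes had few reads. Sf3b5, a small subunit of SF3B, was the only tested gene of 9. It averaged 11.2 ± 2.34 CPM in cold and 8.54 ± 3.43 CPM in control libraries (SD, n = 3 each; log2 change 0.35 ± 0.35, edgeR adjusted p = 0.474). The other 7 SF3 genes with reads had 2 to 19 reads each. Lsm4, a subunit of both the nuclear and the cytoplasmic LSm ring, was the only tested gene of 13. It averaged 25.7 ± 3.90 CPM in cold and 33.3 ± 13.0 CPM in control libraries (SD, n = 3 each; log2 change -0.41 ± 0.30, edgeR adjusted p = 0.327). For both genes the groups overlapped, and the 9 untested LSm genes had 1 to 56 reads.

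Summed by role, the SR proteins had 238, 262 and 225 CPM in cold mice 4, 11 and 15, against 140, 183 and 153 CPM in control mice 2, 9 and 14, and the groups did not overlap. Srsf6 made up most of these sums, and without it they were 33.2, 29.1 and 26.7 CPM in cold and 20.0, 20.6 and 24.0 CPM in control libraries. The hnRNPs summed to 376, 316 and 272 CPM in cold libraries, against 235, 367 and 347 CPM in control libraries, and overlapped. Without Hnrnpab, which has the most reads, they did not overlap, at 194, 180 and 183 CPM in cold and 112, 160 and 142 CPM in control libraries. The Sm and U snRNP proteins summed to 363, 340 and 361 CPM in cold libraries, against 356, 326 and 361 CPM in control libraries, and overlapped as well. Without Snrpb the cold sums, 143, 127 and 127 CPM, were all below the control sums, 164, 158 and 151 CPM. None of these sums was tested. Without the top member they still hold called genes. Those are Srsf3 (SR), Hnrnpf and Hnrnpm (hnRNP), and Snrpc, Snrpn and Snrpd2 (Sm and U snRNP). The gaps between the groups therefore do not show a shift shared by a family.

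**Figure D4:**
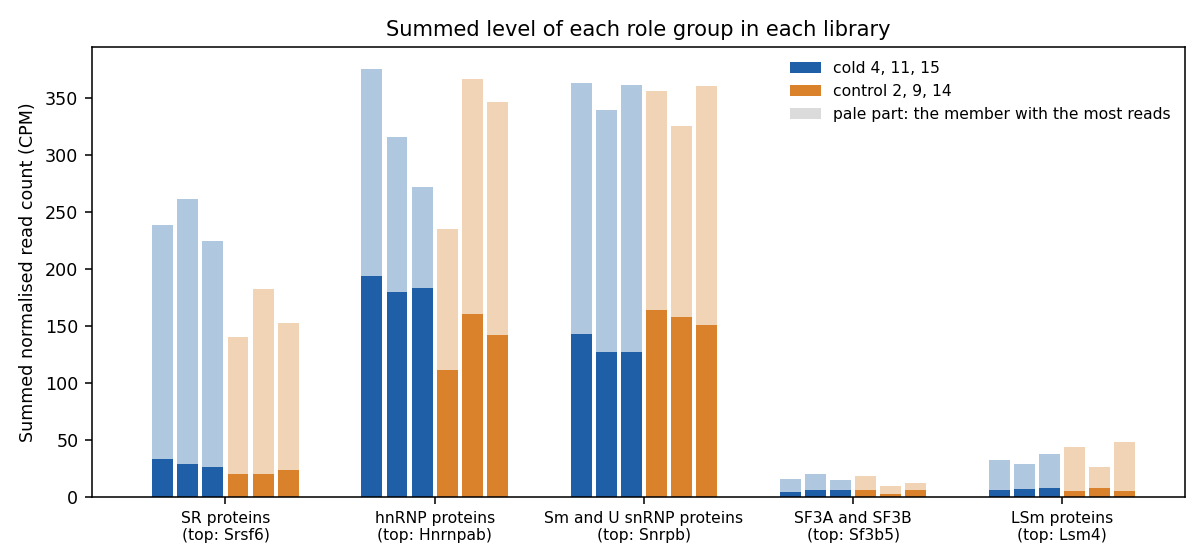
Summed normalised read count (CPM, axis from 0) of each role group in each library, cold in blue left of control in orange, with the member holding the most reads as the pale part of each bar. The SR sum was 225 to 262 CPM in cold and 140 to 183 CPM in control libraries, and the Sm and U snRNP sums overlapped.

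At the level of transcripts, 158 isoforms of these genes had a read and 24 passed the filter, 22 coding and 2 non-coding. Of the 24, 4 were called higher and 2 lower, 25% in all, against 32.7% of all 2787 tested transcripts, of which 17.4% were higher and 15.3% lower. All 6 were coding isoforms of genes called above. Hnrnpf-201 had 51, 59 and 65 reads in cold mice 4, 11 and 15, against 12, 6 and 13 reads in control mice 2, 9 and 14, a log2 change of 1.48 ± 0.29 (edgeR adjusted p = 0.00221). It held 74.8% of the reads of Hnrnpf in cold and 57.4% in control libraries, but no second isoform of the gene was tested, so the difference in share was not tested. The log2 changes of Hnrnpm-206, Srsf6-203 and Snrpc-203 were 1.04, 0.65 and 1.18, and those of Snrpd2-201 and Snrpn-201 were -1.25 and -1.07, with edgeR adjusted p values of 0.0161 to 0.0358. Without cold mice 11 and 15 none of these 6 isoforms changed direction. The share of a gene's reads on each isoform could be tested in 6 of these genes, Snrpb, Hnrnpa2b1, Hnrnpab, Hnrnph1, Hnrnpk and Hnrnpm. None was called by diffSpliceDGE of edgeR, and none had an unadjusted p under 0.05 (smallest 0.881), against 1.67% of 539 genes called and 4.82% with an unadjusted p under 0.05.

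Isoforms annotated under a type other than protein-coding, here called non-coding, were a small part of the reads. They numbered 45 in 26 genes and held 457 reads, against 12172 reads on 113 coding isoforms. There were 19 decay isoforms with 202 reads, 17 retained-intron isoforms with 216 reads and 9 other processed transcripts with 39 reads. Their share of the reads of the 66 genes averaged 3.73 ± 0.95% in cold and 3.27 ± 0.79% in control libraries (SD, n = 3 each). Over all protein-coding genes the share was 4.00 ± 0.11% in cold and 3.87 ± 0.32% in control libraries. In both sets the libraries of the groups overlapped. Snrpb alone held 207 of the 457 reads. Without Snrpb the share of the set was 2.57 ± 0.61% in cold and 2.56 ± 0.37% in control libraries (SD, n = 3 each). All 19 decay isoforms have a splice junction after the stop codon, and the last junction lies 90 to 1801 bases after the stop, with a median of 534.

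The share differed widely from gene to gene. In Srsf3 it was 51.9% of 52 reads in cold libraries (exact 95% binomial interval 37.6 to 66.0%), and 1 of only 3 reads in control libraries. The poison-exon isoform Srsf3-201 had 12, 8 and 4 reads in cold mice 4, 11 and 15, against 0, 0 and 1 reads in control mice 2, 9 and 14. The coding isoform Srsf3-202 had 8, 8 and 9 reads in cold, against 1, 0 and 1 reads in control libraries. Both isoforms were thus more often read in every cold library. As shares of all reads the ratios were 12.5 for Srsf3-201, with an exact 95% interval of 2.03 to 513, and 6.49 for Srsf3-202, with an interval of 1.62 to 56.5. With 3 control reads, a change in the balance between the isoforms was not detectable at this depth.

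Hnrnpa2b1 is an hnRNP that also guides RNA sorting and processing. Its decay isoform Hnrnpa2b1-207, in which the junctions lie after the normal stop, held 80 reads and its coding isoform Hnrnpa2b1-203 held 54. Hnrnpa2b1-207 had 15, 20 and 19 reads in cold mice 4, 11 and 15, against 6, 5 and 15 reads in control mice 2, 9 and 14. All non-coding isoforms together, mostly Hnrnpa2b1-207, held 52.8% of the gene's reads in cold (exact 95% interval 42.9 to 62.5%) and 52.9% in control libraries (38.5 to 67.1%). The label follows the annotated type, so for Hnrnpa2b1-207 it does not mean a premature stop. The log2 change of Hnrnpa2b1-207 was 0.04 ± 0.42 (edgeR adjusted p = 0.954). In the separate test of coding against non-coding classes neither Hnrnpa2b1 nor Snrpb, the only members with both classes tested, was called, against 0.8% of 250 genes.

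In Snrpb, known in human cells to regulate itself through a poison exon, the retained-intron isoform Snrpb-202 had 49, 25 and 44 reads in cold mice 4, 11 and 15, against 22, 2 and 19 reads in control mice 2, 9 and 14 (log2 change 0.51 ± 0.44, edgeR adjusted p = 0.403). The poison-exon isoform Snrpb-203 had 4, 8 and 22 reads in cold, against 5, 3 and 3 reads in control libraries, and was not tested. Non-coding isoforms made up 7.63% of the reads of Snrpb in cold and 6.24% in control libraries. In Srsf6 they made up 1.25% in cold (exact 95% interval 0.805 to 1.86%) and 2.35% in control libraries (1.29 to 3.92%), and by library they were 6 of 611, 9 of 703 and 9 of 601 reads in cold mice 4, 11 and 15, against 6 of 222, 3 of 158 and 5 of 215 reads in control mice 2, 9 and 14. The share was lower in each cold library than in each control library, a difference that rested on 24 and 14 reads and was not tested. In Hnrnpu the single processed transcript Hnrnpu-205 had 3, 4 and 9 reads in cold, against 7, 1 and 2 reads in control libraries. Intervals cover counting error only.

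**Figure D5:**
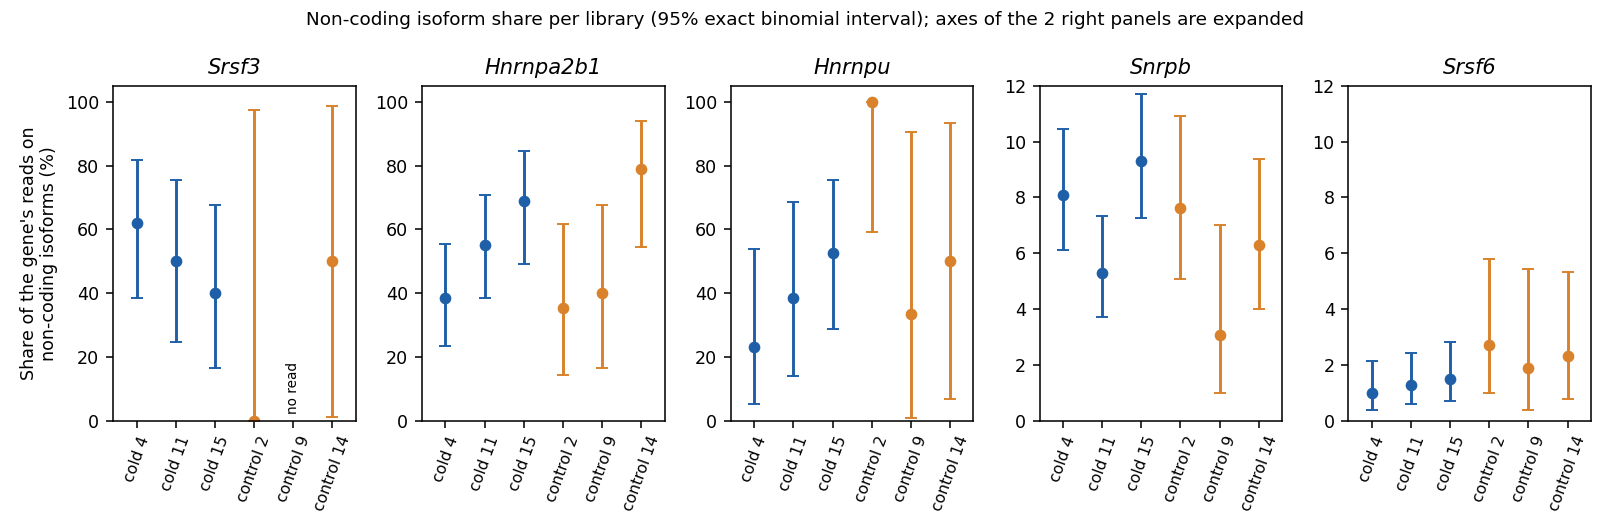
Share of each gene's reads on non-coding isoforms (%) in each library, with cold in blue left of control in orange and the exact 95% binomial interval. Srsf3, Hnrnpa2b1 and Hnrnpu have wide intervals around shares from 0 to 100%, and Snrpb and Srsf6, on an expanded axis, lie below 10%.

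The promoters of the called genes were read for the letters TGACG, the core of the cyclic AMP response element, on either strand from 250 bases before to 50 bases after the RefSeq start. Of 17 tested members with a window, 12 held it in at least 1 window, including all 5 called higher, 1 of 2 called lower and 6 of 10 not called. Over all tested genes with a window the share was 37.9%. It was 38.7% of genes called higher, 28.6% of genes called lower and 39.7% of genes not called. Of all 32851 windows 20.8% held it. The longer palindrome TGACGTCA, which contains the short motif, was in none of the 7 called members and in 1 of the 17 tested members. It was in 3.88% of all tested genes with a window and in 1.79% of all windows. For the 2 SR genes called higher the bases before the start are printed from RefSeq (GRCm38.p6, plus strand), Srsf3 at chr17:29032540-29032627 and Srsf6 at chr2:162931388-162931507, with the motif, here on the minus strand, in capitals.
Srsf3 promoter: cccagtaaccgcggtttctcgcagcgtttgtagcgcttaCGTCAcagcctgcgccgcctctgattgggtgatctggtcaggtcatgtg
Srsf6 promoter: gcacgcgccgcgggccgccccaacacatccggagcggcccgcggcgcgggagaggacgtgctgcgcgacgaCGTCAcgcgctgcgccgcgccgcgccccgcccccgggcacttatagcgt
Each of these stretches holds the motif at 1 place.

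Splicing genes with other names were read beside these. Over 6 lists with 170 distinct genes, 132 had reads, 24 were tested, 5 were called higher and 2 lower, 29.2% against 33.2% of all tested genes, with a median log2 change of 0.08. All 5 higher calls were among the 13 tested of 78 core spliceosome genes, whose median was 0.31. Of all tested genes 18.1% were called higher. Puf60, a poly(U)-binding factor that works with U2AF at the 3′ splice site, had 65.1, 51.6 and 42.8 CPM in cold mice 4, 11 and 15, against 5.41, 14.4 and 11.4 CPM in control mice 2, 9 and 14. Every cold library was far above every control library (log2 change 2.41 ± 0.34, edgeR adjusted p = 0.000453). Phf5a, a subunit of SF3B, averaged 177 ± 21.9 CPM in cold and 78.0 ± 19.4 CPM in control libraries (SD, n = 3 each; 1.18 ± 0.23, edgeR adjusted p = 0.00315). Ppil1, a prolyl isomerase of the spliceosome, changed by 1.85 ± 0.50, Bud31, of the activated spliceosome, by 0.88 ± 0.25, and Dhx15, a helicase that takes spent spliceosomes apart, by 1.91 ± 0.65, with edgeR adjusted p values of 0.0153, 0.0179 and 0.044. Dhx15 overlapped between the groups, with 24, 17 and 15 reads in cold mice 4, 11 and 15, against 1, 5 and 1 reads in control mice 2, 9 and 14, and only 1 control library reached the filter level. Its call was lost with DESeq2 (adjusted p = 0.0746) and without cold 15, control 2 or control 14 (edgeR adjusted p = 0.0517, 0.171 and 0.181). On either flow cell alone, at equal depth, and without cold 4 or cold 11, Dhx15 was below the filter and could not be tested. Ppil1 lost its call without cold 11 (edgeR adjusted p = 0.0558), and Bud31 without cold 4, cold 15 or control 9 (edgeR adjusted p = 0.0629 to 0.0696). Without cold mice 11 and 15 together, Puf60 had a log2 change of 2.75, and Phf5a, Ppil1, Bud31 and Dhx15 had log2 changes of 1.01 to 2.29.

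Among the hnRNPs and splicing regulators with other names, 6 of 46 were tested, 2 fell and none rose, where 15.1% of all tested genes were called lower and 18.1% higher. Pcbp2, a poly(C)-binding protein, had 9.06, 7.28 and 7.58 CPM in cold mice 4, 11 and 15, against 13.0, 14.4 and 24.6 CPM in control mice 2, 9 and 14 (log2 change -1.13 ± 0.31, edgeR adjusted p = 0.0181). Ybx1, a cold shock domain protein that binds messenger RNA, averaged 2739 ± 299 CPM in cold and 3912 ± 550 CPM in control libraries (SD, n = 3 each; -0.51 ± 0.16, edgeR adjusted p = 0.0284). Neither gene's groups overlapped. Without cold mice 11 and 15 the log2 change was -0.89 for Pcbp2 and -0.65 for Ybx1. With 1 library left out Pcbp2 lost its call without cold 11, cold 15 or control 14, and Ybx1 without cold 4, cold 11, cold 15, control 9 or control 14. Pcbp2 also lost it on flow cell 1 alone, and both with no count filter. None of the 4 tested SR-related and exon junction genes was called. Rbm3, the RNA-binding protein known for its induction by mild hypothermia, averaged 7.42 ± 2.70 CPM in cold and 6.33 ± 3.91 CPM in control libraries (SD, n = 3 each; 0.11 ± 0.47, edgeR adjusted p = 0.876), and Cirbp, its relative, had 2 reads in all. The kinases of SR proteins held 28 reads and the decay factors 55, and none of them was tested.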

How the data were processed

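The authors deposited raw read counts per Ensembl transcript, 1 file for each of 2 flow cells per library, and the values are whole numbers without normalization. The submitters' processing notes name minimap2 and GRCm38. How reads that fit several transcripts were assigned, and whether strand was used, is not stated in the labels. Per the labels' protocols, poly(A) RNA was turned into cDNA with the cap-selecting TeloPrime kit over 27 PCR cycles. No molecular identifiers are named, so PCR copies count as reads.

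Of 14693 transcript identifiers, 14671 matched GENCODE M21, and the other 22, with at most 0.00433% of a library's reads, were left out. Counts were summed over flow cells and, for genes, over transcripts. The 6 libraries were the replicates. The labels give each a mouse number, so they were taken as separate animals.

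The test for genes and for transcripts was that of edgeR 4.0.16 (R 4.3.3): filterByExpr at a minimum count of 10, TMM scaling, robust quasi-likelihood F test, Benjamini-Hochberg adjustment over all genes or transcripts tested, no covariate, call at an adjusted p under 0.05. The SE was worked back from F and the log2 change. Isoform shares, and coding against non-coding classes, were tested with diffSpliceDGE. The procedure was tested on simulated data. Alternatives were DESeq2 1.42.0, RLE factors, library totals, no count filter, single flow cells, counts thinned to 1014812 reads, coding isoforms alone, and leaving out libraries. Leaving out cold 11 and 15 together, and every alternative for the called genes of the lists, were chosen after seeing the data. Near-identical copies were sought with blastn 2.17.0 at 95% identity over 50% of the transcript. Binomial intervals are exact (Clopper-Pearson).

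Described are all called genes, the 3 tested members with the most reads in each role, called and tested non-coding isoforms, and called genes of the lists. Others are given by range or named after their values were seen. The genes and lists were chosen with earlier results of these data known.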

Additional observations from a re-analysis of the deposited data

How the results depend on the processing

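The counts of called genes were small and moved with the processing. Against 5 genes of the set called higher and 2 lower, flow cell 1 alone gave 3 and 1, flow cell 2 alone 3 and 1, and equal depth 2 and 2. Leaving out 1 library gave 1 to 4 higher and 0 to 1 lower, with the fewest, 1 and 0, without cold mouse 4. For transcripts, against 4 higher and 2 lower, flow cell 1 alone gave 2 and 1 and flow cell 2 alone 3 and 1. Equal depth gave 2 and 2, and no count filter 5 and 1. Leaving out 1 library gave 1 to 5 higher and 0 to 1 lower. Over all genes, 378 higher and 317 lower calls became 201 and 120 without cold 11 and 15, and 275 to 360 and 223 to 327 with 1 library left out. The causes were not tested, beyond the smaller number of samples or reads.

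None of the 7 called genes of the set, and none of the 7 called genes of the further lists, changed direction in any alternative that tested it. Among genes and isoforms without a call, the log2 change turned sign at equal depth for Lsm4 (0.0030) and Snrpd3 (0.0070), and without cold 11 and 15 for Hnrnpab (0.085) and Hnrnpa2b1-207 (-0.18). With 1 library left out, that of Hnrnph1 ran from -0.015 (without control 2) to 0.31, and that of Hnrnpa2b1-207 from -0.29 (without control 2) to 0.56, also below 0 without cold 11 and without control 9. Library totals alone moved the median of all genes by 0.07 and no count filter by 0.12 on the log2 scale. Isoform usage and class usage gave 0 calls among these genes in every alternative run with replicates in both groups. No paired analysis was possible because the groups share no mouse number. Depth limits the 40 genes below the filter, Srsf3 in control libraries, and all comparisons of minor isoforms.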
